A study of Mus musculus with 8 samples.

Results

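A set of 9 transcription factors of neural progenitors and of the interneuron lineage were followed in RNA of sorted astrocytes. The cells came from the somatosensory cortex of mice, the area that receives touch input. The factors were taken by gene symbol, and all 9 of Pax6, Sox2, Dlx1, Dlx2, Dlx5, Sox4, Sox11, Emx2 and Lhx2 were found among the 24047 rows of the counts table. The mice carried Glast-CreERT2, a Cre recombinase made under the Glast promoter and switched on by tamoxifen, and the Ai14 reporter, which marks recombined cells and their progeny with the red protein tdTomato. The 4 control libraries, labelled WT, carried only these alleles, and the 4 libraries labelled Ptch1cKO were in addition homozygous for floxed Ptch1 (Ptch1fl/fl). Mice of both groups received 10 to 15 μL of 20 mg/ml tamoxifen on each of postnatal days 12 to 14, and red cells were collected by sorting at an age of 23 to 25 days. Glast is also made by radial glia and by neural stem cells, so the promoter does not restrict Cre to mature astrocytes. The labels do not say that the libraries came from separate animals, and p-values therefore measure the spread between these libraries. Ptch1 is the receptor that holds Hedgehog signalling off, and the comparison asks what differs in the sorted cells between mice with and without floxed Ptch1.

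These factors are known from the embryonic forebrain. Pax6, Emx2 and Lhx2 pattern the dorsal telencephalon, where radial glia give rise to projection neurons, and Sox2 keeps neural stem cells undifferentiated and remains on in many astrocytes. The Dlx homeobox genes act in the ventral telencephalon, the source of cortical interneurons, and remain on in the neuroblasts that leave the postnatal subventricular zone for the olfactory bulb. Sox4 and Sox11, the SoxC pair, come on as progenitors turn into neurons. Hedgehog signalling is itself a patterning cue of the ventral telencephalon and a mitogen of adult neural stem cells.

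The libraries held between 4061274 and 7206462 counts. Ptch1, the targeted gene, had 285, 227, 491 and 425 CPM (counts scaled to the size of each library) in WT replicates 1 to 4 and 219, 249, 168 and 258 CPM in Ptch1cKO replicates 1 to 4. This count does not separate deleted exons from those that Cre leaves in place. The groups overlapped, and Ptch1 did not pass between genotypes. Its log2 fold change (Ptch1cKO minus WT) was -0.67 (SE 0.22; unadjusted p = 0.00765 and adjusted p = 0.349, edgeR). Without the filter on low counts it passed, at -0.66 (adjusted p = 0.00235, edgeR). Astrocyte markers summed to between 20496 and 30249 CPM in WT against between 15679 and 32248 CPM in Ptch1cKO, and all 9 were detected. Transcripts typical of other cells were also abundant. The 4 oligodendrocyte markers summed to between 13382 and 26049 CPM in WT against between 16809 and 22357 CPM in Ptch1cKO. The 5 excitatory neuron markers summed to between 9272 and 10464 CPM in WT against between 8387 and 10621 CPM in Ptch1cKO. In such bulk libraries fewer cells of a type and less RNA per cell cannot be told apart. Xist, made from the inactive X of females, reached 10 counts only in WT replicates 2 and 3, and all 4 Ptch1cKO libraries were under that limit.

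Levels of the 9 genes spanned a wide range. In the authors' deposited TPM, which scale for transcript length, Lhx2 was highest with 324 ± 105 TPM in WT and 291 ± 13.3 TPM in Ptch1cKO (SD, n = 4). Its mean over all libraries exceeded that of 95.5% of the genes tested. Sox2, Pax6 and Emx2 followed with means over the 8 libraries of 61.8, 49.8 and 39.5 TPM, and their ranges over libraries overlapped (32.3 to 85.8, 26.4 to 85.7 and 29.8 to 59.4 TPM). Sox4 lay between these genes and the rest at 14.1 TPM. Dlx5, Sox11, Dlx1 and Dlx2 had means of 6.53, 5.99, 4.82 and 3.34 TPM, and with ranges of 0.334 to 33.5, 1.93 to 15.7, 1.21 to 20.0 and 0 to 15.2 TPM these 4 could not be ordered beyond their spread. Levels also depend on how well exome capture probes pull down each gene, so the order is a description of these libraries.

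**Figure D1:**
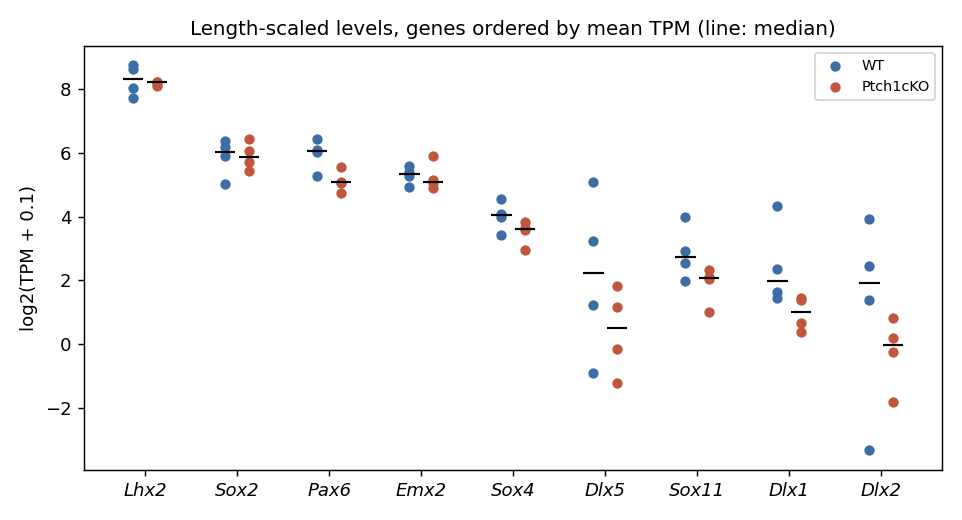
Length-scaled level of the 9 genes in each library, as log2(TPM + 0.1) on the vertical axis, with genes ordered by mean TPM on the horizontal axis. Blue points are the 4 WT and red points the 4 Ptch1cKO libraries, and black lines are medians. Lhx2 forms a narrow band at the top in Ptch1cKO (291 ± 13.3 TPM), and the Dlx genes spread most widely.

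No factor passed the test between genotypes. By edgeR's quasi-likelihood test over all 10954 genes tested, 0 of the 8 factors with enough counts had a Benjamini-Hochberg adjusted p under 0.05, where 0.1% of all tested genes did and 0.0183% did with the lower mean in Ptch1cKO. An unadjusted p under 0.05 was found for 4 of the 8, Pax6, Dlx1, Dlx2 and Sox11, each with its lower mean in Ptch1cKO. Of all tested genes, 4.54% had an unadjusted p under 0.05 with the lower mean in Ptch1cKO, 4.8% with the higher mean there and 9.34% in either direction. DESeq2 on the same genes also called 0 of the factors. The median log2 fold change (Ptch1cKO minus WT) of the 8 was -0.60, beside -0.0019 for all tested genes. In CPM the groups overlapped for each of the 9 factors, whereas they did not for 5.02% of tested genes, 2.5% with Ptch1cKO lower. In TPM they overlapped for all but Dlx1, whose lowest WT library had 2.649 TPM and whose highest Ptch1cKO library had 2.639 TPM. The share of all tested genes without overlap in TPM was not counted, so this is a description only. Without the filter on low counts, 4 of the 9 passed as lower in Ptch1cKO, where 0.462% of 20578 genes did. They were the same 4 genes, and the values of that fit stand beside each gene below. The fit without the filter was not repeated without WT replicate 1.

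**Figure D2:**
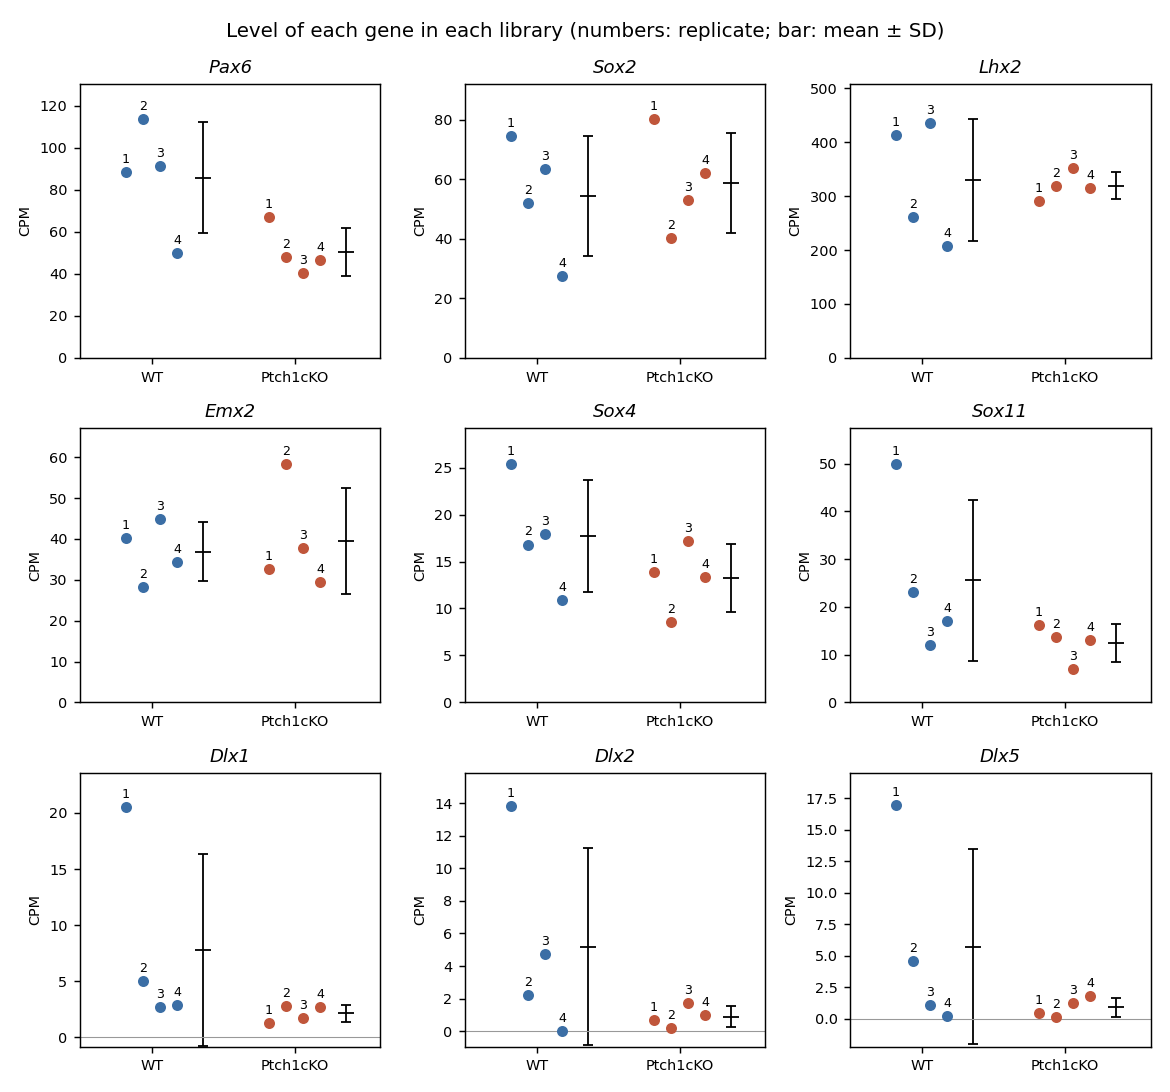
CPM of each gene (vertical axis, linear) in the 4 WT (blue) and 4 Ptch1cKO (red) libraries, with the replicate number over each point and the mean ± SD as a black bar. WT replicate 1 stands far above the other 7 libraries for Dlx1 (20.5 CPM), Dlx2 (13.8 CPM) and Dlx5 (17.0 CPM), and for Pax6 WT replicates 1 to 3 lie above all 4 Ptch1cKO libraries.

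Among the dorsal progenitor factors Pax6 had the largest difference. This paired-box and homeobox factor drives radial glia towards neuron production. Pax6 (chromosome 2, 105668900 to 105697364 of mm10, plus strand) had 88.3, 113, 91.3 and 50.03 CPM in WT replicates 1 to 4 and 66.9, 48.0, 40.6 and 46.4 CPM in Ptch1cKO replicates 1 to 4. Thus 3 of 4 WT libraries lay above all Ptch1cKO libraries, and WT replicate 4 fell inside the mutant range. The log2 fold change was -0.76 (SE 0.23), with an unadjusted p of 0.00444 and a Benjamini-Hochberg adjusted p of 0.325 by edgeR. The difference did not rest on WT replicate 1, without which it was -0.75 (SE 0.25). WT replicates 2 and 3, the libraries with Xist, were the highest for Pax6, and in the 6 libraries with under 10 Xist counts the log2 fold change was -0.45 (SE 0.26; adjusted p = 0.684, edgeR). Without the count filter Pax6 passed, at -0.76 (SE 0.18; adjusted p = 0.00874, edgeR). An exact two-sided permutation test on CPM over the 70 assignments of libraries to groups gave p = 0.0571. The smallest p it allows is 0.0286. The antisense gene Pax6os1 overlaps the start of Pax6 but shares no exon with it, and had at most 2 counts in a library.

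Sox2, Emx2 and Lhx2 had close means in both groups, and the sign of each difference turned when single libraries were left out. Sox2, an SRY-related factor of stem cells (chromosome 3, 34650405 to 34652461, plus strand), had 74.5, 52.2, 63.6 and 27.4 CPM in WT and 80.1, 40.1, 52.9 and 62.1 CPM in Ptch1cKO, a log2 fold change of 0.11 (SE 0.27; adjusted p = 0.949, edgeR). WT replicate 4 was its lowest library and Ptch1cKO replicate 1 its highest. The long non-coding RNA Sox2ot, transcribed across Sox2 on the same strand with no shared exon, had a log2 fold change of -0.08 (SE 0.27). Emx2, a homeobox factor of the dorsal and caudal cortex (chromosome 19, 59458372 to 59465357, plus strand), had 40.2, 28.1, 44.9 and 34.4 CPM in WT and 32.7, 58.4, 37.9 and 29.4 CPM in Ptch1cKO. Its log2 fold change was 0.10 (SE 0.23; adjusted p = 0.943, edgeR), and the highest and the second lowest library were both mutant. An exon of Emx2 overlaps Emx2os on the opposite strand, which had 2.36 ± 0.854 CPM in WT against 1.96 ± 1.27 CPM in Ptch1cKO (SD, n = 4). No source used here states a strand setting for the counting. Reads from the 2 strands of such a pair cannot be told apart.

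Lhx2, a LIM homeobox factor that specifies cortex and acts in glial development (chromosome 2, 38339281 to 38369733, plus strand), had 414, 261, 436 and 207 CPM in WT against 292, 319, 352 and 314 CPM in Ptch1cKO. The means were 329 ± 113 and 319 ± 24.9 CPM (SD, n = 4), for a difference on the log2 scale of -0.05 (SE 0.20; adjusted p = 0.97, edgeR). All 4 mutant libraries lay inside the gap between the upper and the lower pair of WT libraries. Lhx2 had 8245 counts summed over WT and 7220 over Ptch1cKO.

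The SoxC factors had lower means in Ptch1cKO, with overlap. Sox11 (chromosome 12, 27334264 to 27342574, minus strand) had 49.96, 23.1, 12.02 and 17.1 CPM in WT and 16.2, 13.7, 6.89 and 13.1 CPM in Ptch1cKO. WT replicate 1 had 2.16 times the level of the next WT library. The log2 fold change was -1.02 (SE 0.39; unadjusted p = 0.0205 and adjusted p = 0.442, edgeR), and without WT replicate 1 it was -0.47 (SE 0.31, unadjusted p = 0.158, adjusted p = 0.702). Restricted to the 6 libraries below 10 Xist counts it was -1.42 (SE 0.40; adjusted p = 0.411, edgeR). The only WT libraries among those 6 are replicate 1, the highest for Sox11, and replicate 4. Without the count filter Sox11 passed in the 8 libraries, at -1.01 (SE 0.26; adjusted p = 0.0163, edgeR). The exact two-sided permutation test on CPM gave p = 0.171 for Sox11. Sox4 (chromosome 13, 28948919 to 28953713, minus strand) had 25.4, 16.8, 17.9 and 10.9 CPM in WT and 13.9, 8.51, 17.2 and 13.4 CPM in Ptch1cKO. Its log2 fold change was -0.43 (SE 0.28; adjusted p = 0.682, edgeR), and -0.21 (SE 0.29) without WT replicate 1, again its highest library. An exon of Sox4 overlaps the opposite-strand non-coding gene Gm26735. The third SoxC member, Sox12, had 2.43 ± 0.471 CPM in WT against 2.36 ± 0.757 CPM in Ptch1cKO (SD, n = 4).

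The Dlx genes had the largest differences, and most of their WT counts came from 1 library. Dlx1 (chromosome 2, 71528113 to 71533981, plus strand) had 122, 32, 19 and 14 counts in WT against 9, 16, 7 and 16 counts in Ptch1cKO, or 20.5, 5.03, 2.66 and 2.88 CPM against 1.28, 2.78, 1.72 and 2.64 CPM. WT replicate 1 had 4.08 times the CPM of the next library, and of the other WT libraries only replicate 3 lay inside the mutant range. The log2 fold change was -1.87 (SE 0.62; unadjusted p = 0.0091 and adjusted p = 0.373, edgeR). Without WT replicate 1 it was -0.74 (SE 0.47, unadjusted p = 0.138, adjusted p = 0.682). Without the count filter Dlx1 passed in the 8 libraries, at -1.87 (SE 0.42; adjusted p = 0.00256, edgeR). The exact two-sided permutation test on CPM gave p = 0.0571 for Dlx1. Exons of Dlx1 overlap the opposite-strand Dlx1as, which had 65, 22, 16 and 7 counts in WT against 8, 8, 11 and 12 in Ptch1cKO and was likewise highest in WT replicate 1.

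Dlx2 lies 9426 bases from Dlx1 on the opposite strand (chromosome 2, 71543408 to 71546754, minus strand). It had 82, 14, 34 and 0 counts in WT against 5, 1, 7 and 6 in Ptch1cKO, or 13.8, 2.20, 4.75 and 0 CPM against 0.71, 0.174, 1.72 and 0.992 CPM. WT replicate 4, with 0 counts, was the lowest of all 8 libraries, so the WT group held both extremes. A count of 0 allows up to 3 counts in that library, counting error only. The log2 fold change was -2.58 (SE 0.94; unadjusted p = 0.0166 and adjusted p = 0.421, edgeR), and -1.46 (SE 0.87, unadjusted p = 0.116, adjusted p = 0.655) without WT replicate 1. Without the count filter Dlx2 passed in the 8 libraries, at -2.57 (SE 0.60; adjusted p = 0.00993, edgeR). The exact two-sided permutation test on CPM gave p = 0.2 for Dlx2.

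Dlx5 (chromosome 6, 6877805 to 6882085, minus strand) did not reach the count filter. It had 101, 29, 8 and 1 counts in WT against 3, 1, 5 and 11 in Ptch1cKO, so that 72.7% of the WT counts lay in WT replicate 1. WT replicates 3 and 4 fell inside the mutant range. In CPM the means were 5.72 ± 7.75 and 0.912 ± 0.754 (SD, n = 4), and an exact two-sided permutation test over the 70 assignments gave p = 0.314, where the smallest p it allows is 0.0286. Dlx6, its neighbour 9236 bases away, had 75, 18, 8 and 4 counts in WT against 12, 4, 3 and 2 in Ptch1cKO (exact two-sided permutation test, p = 0.171). Like Dlx5 it lay below the count filter, and in the fit without that filter Dlx6 passed, at -2.26 (SE 0.55; adjusted p = 0.00861, edgeR), while Dlx5 did not, at -2.66 (SE 1.02; adjusted p = 0.404, edgeR). The non-coding Dlx6os1, known as Evf2, overlaps Dlx6 on the opposite strand and had 63, 20, 6 and 14 counts in WT against 5, 13, 6 and 7 in Ptch1cKO. Its log2 fold change was -1.64 (SE 0.65; adjusted p = 0.455, edgeR), and -0.70 (SE 0.59; adjusted p = 0.764, edgeR) without WT replicate 1. For Dlx1as the values were -1.35 (SE 0.59) with all libraries and -0.44 (SE 0.52) without that one. Among the 6 libraries below 10 Xist counts, where WT replicates 1 and 4 are the only WT libraries, the differences were larger: -2.47 for Dlx1 (SE 0.61; adjusted p = 0.318, edgeR), -2.997 for Dlx2 (SE 1.13; adjusted p = 0.554, edgeR) and -2.28 for Dlx6os1 (SE 0.58; adjusted p = 0.33, edgeR).

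**Figure D3:**
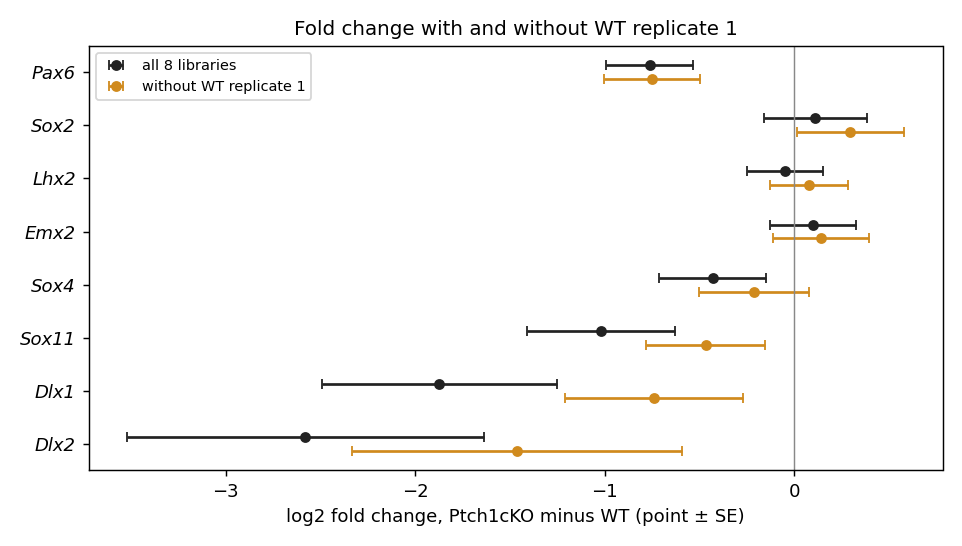
Log2 fold change of the 8 tested genes, Ptch1cKO minus WT, on the horizontal axis, as point ± SE from edgeR, with all 8 libraries (black) and without WT replicate 1 (orange). Pax6 moves from -0.76 to -0.75, while Dlx1 moves from -1.87 to -0.74 and Sox11 from -1.02 to -0.47.

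The library that carried the Dlx reads was also high in other transcripts of neuroblasts and dividing cells. Summed over Dlx1, Dlx2, Dlx5 and Dlx6, WT replicate 1 had 380 counts of 561 in the WT group, 67.7%, although it held 23.9% of all WT counts. The 5 neuroblast markers summed to 95.4 CPM in WT replicate 1, against 12.6 to 31.3 CPM in the other WT libraries and 14.9 to 20.5 CPM in Ptch1cKO. Dcx, a microtubule protein of migrating neurons, had 421, 169, 73 and 57 counts in WT against 88, 81, 68 and 107 in Ptch1cKO. Sp8, a zinc finger factor of olfactory bulb interneurons, had 39, 6, 0 and 0 counts in WT against 2, 0, 0 and 1 in Ptch1cKO. Igfbpl1, another of the 5 markers and below the count filter, had 19, 5, 1 and 0 counts in WT and 0 in all 4 Ptch1cKO libraries. Without the count filter Sp8 and Igfbpl1 passed as lower in Ptch1cKO (adjusted p = 0.0155 and 0.0256, edgeR), where 0.462% of 20578 genes did. The markers Dcx, Sp9 and Cd24a did not pass in that fit (adjusted p = 0.673, 0.587 and 0.342, edgeR). Exact two-sided permutation tests gave p = 0.429 for Sp8 and p = 0.143 for Igfbpl1. Of the 2 neuroblast markers that could be tested, Dcx and Cd24a, 0 passed by edgeR and both had negative log2 fold changes, -0.97 (SE 0.52) for Dcx, which was -0.09 (SE 0.32) without WT replicate 1.

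Proliferation markers were also highest in WT replicate 1. Mki67 and Top2a, made in cycling cells, summed to 145, 43.8, 4.33 and 1.24 CPM in WT replicates 1 to 4 and to 9.23, 7.30, 32.0 and 30.9 CPM in Ptch1cKO replicates 1 to 4. Neither passed by edgeR (adjusted p = 0.692 for Mki67 and 0.838 for Top2a). In 50 of 10954 tested genes, 0.456%, WT replicate 1 had at least 2 times the CPM of every other library. They included Dlx1, Dlx2 and Sox11, which are 3 of the 8 factors tested, and the ratios were 3.73 for Top2a, 3.27 for Cd24a and 2.67 for Dcx. Such a count was not made for the other libraries. Over all tested genes WT replicate 1 was the highest of the 8 libraries in 11.4%, and the other libraries each in 7.87% to 17.5%. WT replicates 1 and 2 share a prefix in the column names. No source used here says what the prefix marks, and as no prefix spans both genotypes it cannot be told apart from genotype. The part of these transcripts in the Dlx and SoxC differences was not tested.

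Genes of mature interneurons varied from gene to gene. The 6 interneuron markers summed to 178, 151, 127 and 139 CPM in WT against 122, 127, 175 and 128 CPM in Ptch1cKO. Gad1, which makes the transmitter GABA, was highest in WT replicate 1 at 61.7 CPM, with the other WT libraries at 20.6, 30.9 and 24.9 CPM and Ptch1cKO at 25.1, 32.8, 42.6 and 27.3 CPM. Its partner enzyme Gad2 had 65.4, 79.8, 51.6 and 83.6 CPM in WT and 49.0, 53.5, 75.3 and 62.6 CPM in Ptch1cKO, and WT replicate 1 was not its highest library. Slc32a1, which loads GABA into vesicles, had 18.3, 16.7, 12.6 and 5.97 CPM in WT against 17.0, 7.30, 14.5 and 10.1 CPM in Ptch1cKO, with WT replicate 1 again the highest. Lhx6, a factor of interneurons born in the medial ganglionic eminence, had 3.69 ± 0.983 CPM in WT against 3.88 ± 1.57 CPM in Ptch1cKO (SD, n = 4). Vip had at most 1 count in a library.

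**Figure D4:**
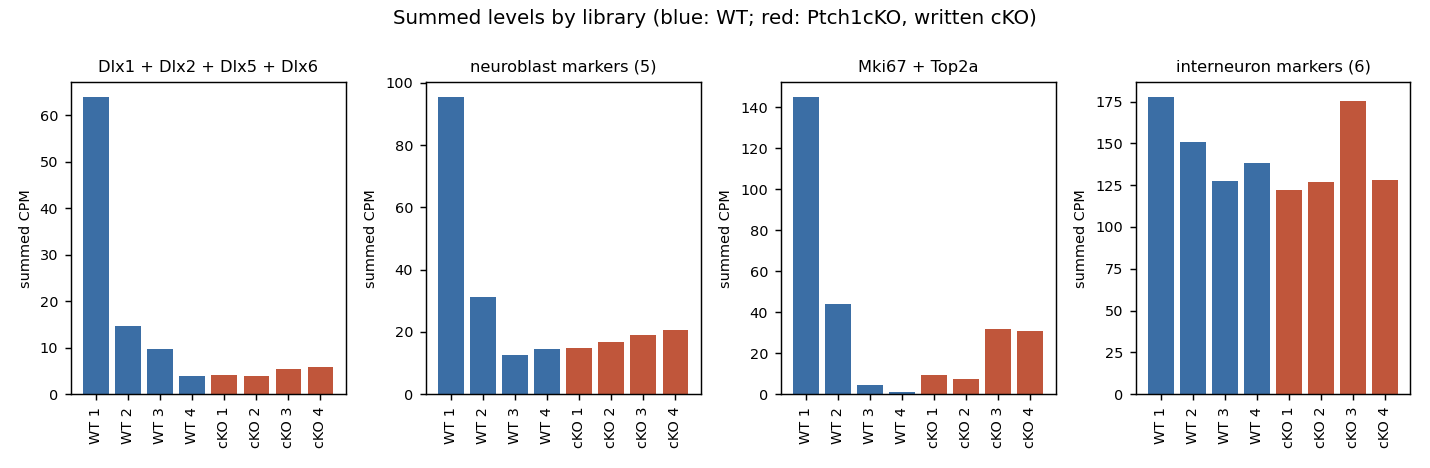
Summed CPM per library (vertical axes, linear from 0; bars, 1 per library, WT blue and Ptch1cKO red) for Dlx1, Dlx2, Dlx5 and Dlx6, for 5 neuroblast markers, for Mki67 and Top2a, and for 6 interneuron markers. WT replicate 1 is the tallest bar in all 4 panels (63.9, 95.4, 145 and 178 CPM), and for the interneuron markers Ptch1cKO replicate 3 is close to it at 175 CPM.

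Upstream sequence is shown for Pax6, Dlx2, Sox4 and Sox11, the factors with an unadjusted p under 0.05, together with the SoxC relative of Sox11. The window of Dlx1 lies inside its annotated gene and is not printed. RefSeq (GRCm38.p6, the assembly of mm10) held a start for 8 of the 9 factors. Each line runs 5′ to 3′ on the gene's strand and ends at the start, except that for Sox4 the last bases, which lie inside the annotated gene, were left off. Capitals mark CAGCTG and CACGTG (E-boxes, the words read by basic helix-loop-helix factors) and CCAAT (the CCAAT box) on either strand.
Pax6, chr2:105668646-105668895, plus strand: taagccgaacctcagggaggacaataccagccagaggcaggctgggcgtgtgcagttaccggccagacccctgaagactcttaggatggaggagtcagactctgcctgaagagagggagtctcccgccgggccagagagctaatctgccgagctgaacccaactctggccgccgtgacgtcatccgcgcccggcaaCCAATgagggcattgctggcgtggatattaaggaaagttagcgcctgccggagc
Dlx2, chr2:71546755-71547004, minus strand: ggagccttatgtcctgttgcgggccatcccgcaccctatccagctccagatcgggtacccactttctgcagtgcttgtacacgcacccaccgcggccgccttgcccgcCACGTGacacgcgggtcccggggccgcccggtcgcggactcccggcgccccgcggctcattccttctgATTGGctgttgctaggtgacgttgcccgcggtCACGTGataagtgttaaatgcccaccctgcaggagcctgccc
Sox4, chr13:28953714-28953949, minus strand: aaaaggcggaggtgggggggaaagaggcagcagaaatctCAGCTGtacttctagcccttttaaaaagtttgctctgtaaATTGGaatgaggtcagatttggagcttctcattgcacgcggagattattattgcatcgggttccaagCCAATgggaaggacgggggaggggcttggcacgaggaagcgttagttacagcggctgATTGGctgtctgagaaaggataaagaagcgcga
Sox11, chr12:27342719-27342968, minus strand: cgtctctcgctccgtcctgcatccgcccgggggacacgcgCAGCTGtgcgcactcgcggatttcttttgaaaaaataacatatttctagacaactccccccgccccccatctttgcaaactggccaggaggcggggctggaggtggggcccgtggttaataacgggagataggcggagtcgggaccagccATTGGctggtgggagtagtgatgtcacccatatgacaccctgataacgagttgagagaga

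The SoxC pair each held 1 CAGCTG, beginning 211 bases before the start in Sox4 and 210 in Sox11, a word found in 4271 of 32851 mouse windows of 250 bases. Dlx2 held CACGTG at 142 and 42 bases before its start, and 6.02% of windows held that word at least once. CCAAT stood in all 4 printed windows and in 33.8% of windows overall. It also stood in the windows of Sox2 and Emx2, but not in those of Dlx1 and Lhx2. A further 4 words were searched on both strands: GACCACCCA, recognised by Gli factors of the Hedgehog pathway (0.225% of windows), TAATTA, the homeodomain core (4.84%), AACAAT, a Sox core (9.42%), and GTGGGAA, bound by the Notch effector RBPJ (5.42%). None of these letters occurred in the windows of the 8 factors, second starts of Pax6 and Lhx2 included. CACGTG and CCAAT were added after the letters had been read, and no marked word overlaps another in the 4 printed windows.

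Other regulators of these lineages were counted from 6 lists, and none of their genes passed over all genes by edgeR. Without the count filter Dlx6, Sp8 and Igfbpl1 passed as lower in Ptch1cKO, and Lmo1 and Lmo2, with the higher mean there, also passed. In that fit 0.967% of 20578 genes passed, 0.462% as lower in Ptch1cKO. Genes of these lists with an unadjusted p under 0.05 are named below after their values were seen, and 9.34% of all tested genes had one. Among 32 tested neural stem and progenitor regulators, 14 had positive and 18 negative log2 fold changes, with a median of -0.02, and 3 had an unadjusted p under 0.05 (Hes1 and Lmo2 with the higher mean in Ptch1cKO, Nfib with the lower). The most abundant were the nuclear factor I genes of gliogenesis. Nfix had 2735 ± 332 CPM in WT against 2278 ± 454 CPM in Ptch1cKO, Nfia 972 ± 102 and 967 ± 138 CPM, and Nfib 353 ± 30.7 and 270 ± 38.1 CPM (SD, n = 4). Nfib was lower in all 4 mutant libraries than in any WT library, at -0.39 (SE 0.13; adjusted p = 0.373, edgeR). In this list 1 tested gene had groups without overlap in each direction. Of all tested genes, 5.02% had no overlap, 2.5% with Ptch1cKO lower.

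Single progenitor genes differed in level and spread. Sox9, a glial fate factor, had 112 ± 48.3 CPM in WT against 110 ± 27.9 CPM in Ptch1cKO (SD, n = 4). Nr2e1, the stem cell receptor also called Tlx, had 122 ± 18.9 and 113 ± 10.2 CPM (SD, n = 4). Hes1, a Notch and Hedgehog target that represses proneural genes, had 1.68, 0.943, 1.82 and 1.24 CPM in WT and 5.40, 1.74, 2.71 and 4.63 CPM in Ptch1cKO, a log2 fold change of 1.34 (SE 0.47; adjusted p = 0.386, edgeR). Hes1 had few reads and its groups overlapped. Hes5 and Eomes lay below the count filter.

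In the ventral telencephalon and interneuron list, 11 of 16 tested genes had positive and 5 negative log2 fold changes, with a median of 0.11, and 1 had an unadjusted p under 0.05 (Npas3). Of the 16, 4 had their highest CPM in WT replicate 1, beside 11.4% of all tested genes. The most abundant were Zeb2 (2024 ± 328 CPM in WT against 1694 ± 112 CPM in Ptch1cKO), the chromatin organiser Satb1 (897 ± 94.7 and 833 ± 93.7 CPM) and Etv1 (98.6 ± 12.5 and 117 ± 16.3 CPM; SD, n = 4). Olig2, shared by ventral progenitors and the oligodendrocyte lineage, had 5.73 ± 1.57 CPM in WT against 7.25 ± 1.67 CPM in Ptch1cKO (SD, n = 4). Among 15 tested mature interneuron genes, 6 were positive and 9 negative, with a median of -0.12, and 2 had an unadjusted p under 0.05 (Npy and Adarb2). The neuropeptide Cck, one of the abundant genes among them, had 87.8 ± 26.04 and 79.0 ± 9.09 CPM (SD, n = 4).

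Of 16 projection neuron regulators tested, 4 were positive and 12 negative, with a median of -0.16, and 1 had an unadjusted p under 0.05 (Pou3f2). Cux1 had 592 ± 26.6 CPM in WT against 596 ± 50.3 CPM in Ptch1cKO, Mef2c 478 ± 86.2 and 393 ± 67.9 CPM, and Foxp1 269 ± 46.1 and 247 ± 13.4 CPM (SD, n = 4). Of 15 newborn neuron genes tested, 5 were positive and 10 negative, with a median of -0.14. In this list 2 had an unadjusted p under 0.05 (Dpysl5 and Nrep), and 6 of the 15 were highest in WT replicate 1. The most abundant of them, which mature cells also make, were Dclk1 (840 ± 65.3 and 790 ± 26.9 CPM), Ncam1 (272 ± 64.6 and 330 ± 71.4 CPM) and Tubb2b (251 ± 91.5 and 299 ± 67.4 CPM; SD, n = 4). Of 13 LIM and homeobox relatives and cofactors tested, 5 were positive and 8 negative, with a median of -0.06. An unadjusted p under 0.05 was found for 5 of the 13, with adjusted p between 0.337 and 0.529 by edgeR. Lmo1 (2.07, SE 0.65) and Ldb2 (0.63, SE 0.22) had positive log2 fold changes, and Lmo3 (-0.56, SE 0.20), Pou3f2 (-0.51, SE 0.24) and Pou3f4 (-0.85, SE 0.39) negative ones. Abundant genes among these were Ssbp3 (187 ± 11.2 and 220 ± 35.9 CPM) and Meis2 (198 ± 52.5 and 189 ± 21.4 CPM; SD, n = 4).

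The genes whose profile over the 8 libraries was nearest to a factor's were found from the mean absolute difference of log2 CPM after centring each gene. Nearest to Pax6 among 8492 genes were the kinase gene Cdkl2, the cell cycle regulator Rgcc and the semaphorin receptor Plxnd1, at 0.115, 0.134 and 0.145, where the median gene lay at 0.511. Nearest to Dlx1 were the zinc finger factor Myt1, the collapsin response mediator Dpysl5 and the mitochondrial ribosomal gene Mrpl33, at 0.318, 0.336 and 0.346, and Sox11 ranked 4 of 8493. Nearest to Dlx2 were 3 histone genes, Hist1h1e, Hist1h4d and H2afx, at 0.566, 0.601 and 0.66, against a median of 1.22. These distances describe the 8 libraries only, and were not tested.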

How the data were processed

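RNA of sorted tdTomato-positive cells was sequenced in 4 WT and 4 Ptch1cKO libraries after low-input cDNA amplification and exome capture, per the labels' protocols. The authors deposited raw counts of reads per gene symbol and, in a second table, TPM scaled for transcript length. Tools named in the submitters' processing notes are bcl2fastq 2.18 and STAR 2.5, with the build mm10. Details of the counting program, gene annotation and strand handling were not given in the sources used here.

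Testing of the count table used edgeR 4.0.16 under R 4.3.3. The filter (filterByExpr, minimum count 10) kept 10954 of 20578 genes with a count, TMM factors scaled the libraries, and the quasi-likelihood F test (robust) compared the groups with Benjamini-Hochberg adjustment and a threshold of 0.05. SE is the log2 fold change divided by the square root of F. CPM use TMM-scaled library sizes. The test was checked on simulated data. DESeq2 1.42.0, limma 3.58.1 on log2 TPM, other scaling and filters, a replicate block, left-out libraries and Xist-based settings were the alternatives. No pair of libraries of the same genotype agreed within sampling noise in a chi-square test, and pairs across genotypes were not tested. Gene positions and exon overlaps come from GENCODE M21 on GRCm38, the assembly of mm10, and all 9 symbols matched 1 gene.

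The factors, lists and alternatives were chosen with earlier results of these data known. Genes named beside the 9 factors are Ptch1, overlapping genes, the 3 of each list with the highest mean CPM, further regulators fixed by name, and nearest profiles for Pax6, Dlx1 and Dlx2. Some genes that this rule names are not reported here. Profile distances used log2(CPM + 0.5) over genes averaging 5 CPM or more. Xist, and among the markers Sp8, Sp9, Igfbpl1, Cd24a, Vip, Slc32a1, Gjb6, Mag, Mki67 and Top2a, were named after their values were seen.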

Additional observations from a re-analysis of the deposited data

Results flagged for a closer look

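In 30 groups of 4 libraries checked (15 genes in each genotype), 2 held a library whose gap to its nearest neighbour took up more of the range than Dixon's 95% critical value allows. Chance alone gives this in about 5% of groups. Dlx1 had 20.5 CPM in WT replicate 1 and 5.03 CPM in the next WT library, a gap of 0.867 of the range. Dlx6 had 12.6 CPM in WT replicate 1 and 2.83 CPM in the next, a gap of 0.83 of the range. Both genes were read in the same libraries and are not independent.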

How the results depend on the processing

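The 11 genes called over the whole table became 76 with DESeq2, 199 without the count filter, 5 with the replicate block, 3 in libraries under 10 Xist counts and 2 with a term for the other libraries, and 2 with limma on log2(TPM + 1) or log2(TPM + 0.1). Leaving out single libraries gave 1 to 19, from 1 without WT replicate 2, 3 or 4 to 19 without Ptch1cKO replicate 2. The factors called went from 0 to 4 without the count filter and stayed at 0 in every other alternative. A stricter filter, which asked for a mean of at least 30 counts, left out Dlx1, Dlx2 and Dlx5, so they could not be called there. Without the count filter, where 0.967% of 20578 genes passed, Pax6 (-0.76), Dlx1 (-1.87), Dlx2 (-2.57), Sox11 (-1.01) and Ptch1 (-0.66) passed. Of the lists, Dlx6, Sp8 and Igfbpl1 passed as lower in Ptch1cKO. Lmo1 and Lmo2 of the lists and the markers Gjb6 and Mag passed with the higher mean there. The cause was not tested. Correlations of same-numbered deviations were 0.018, -0.166, -0.1 and -0.025, which show no pairing by replicate number but cannot exclude one. In the column names Ptch1cKO replicates 3 and 4 carry the numbers 4 and 5. With the block by replicate number Pax6 was at -0.73 and Dlx1 at -1.41.

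Directions that turned were those of small differences, apart from Top2a. Lhx2 was 0.0175 and Sox9 0.0247 with the block. In libraries under 10 Xist counts and with the Xist term, Lhx2 was 0.0385 and 0.0383, Sox9 0.183 and 0.183, Nr2e1 0.0963 and 0.0962, Sox12 0.211 and 0.21, Emx2os 0.199 and 0.202, Cck 0.234 and 0.234, Cux1 -0.001 and -0.0011, and Foxp1 0.0949 and 0.0949. On log2(TPM + 1) and log2(TPM + 0.1), Emx2 was -0.0446 and -0.0463, Lhx6 -0.065 and -0.105, and Cux1 -0.112 and -0.113. Top2a was 0.327 on log2(TPM + 0.1), and Nfia 0.0009 without the filter. Leaving out single libraries gave ranges of -0.105 to 0.297 for Sox2, -0.145 to 0.219 for Emx2, -0.214 to 0.117 for Lhx2, -0.248 to 0.145 for Sox2ot, -0.204 to 0.265 for Sox9, -0.302 to 0.318 for Gad1, -0.299 to 0.0659 for Sox12, -0.771 to 0.0102 for Emx2os, -0.147 to 0.295 for Lhx6, -1.67 to 0.421 for Top2a, -0.0946 to 0.0675 for Nfia, -0.304 to 0.0218 for Cck, -0.0253 to 0.063 for Cux1 and -0.194 to 0.104 for Meis2. In the same settings Pax6 ranged from -0.95 to -0.60, Dlx1 from -2.17 to -0.74, Dlx2 from -3.005 to -1.46 and Sox11 from -1.26 to -0.47, the weakest without WT replicate 1 for the last 3. Dlx1, Dlx2 and Dlx5 had 48, 19 and 20 counts summed over the Ptch1cKO libraries.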
